A study of Mus musculus with 7 samples.

Results

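B cell and plasma cell genes were followed in RNA of CD4+ cells sorted from mouse spleen, a gate meant to hold T cells. The set was given by 34 gene symbols: genes of the B cell surface, of B cell receptor signalling, of B cell transcription and of plasma cells. The deposited table holds 32 of them among 19589 genes, and the other symbols, Faim3 and Igj, are older names of Fcmr and Jchain. The members are 12 surface, 6 signalling, 3 transcription factor and 11 plasma cell genes. All 7 mice were C57BL/6, 4 of them wild type (WT1 to WT4) and 3 labelled RT (RT1 to RT3), which the series describes as Tet2-/- with G17V RHOA. Tet2 encodes a dioxygenase that oxidises 5-methylcytosine, and RHOA is a small GTPase whose G17V form is found in angioimmunoblastic T cell lymphoma. The cells were sorted on a FACS Aria II, and 150 ng of total RNA per sample entered a TruSeq v2 library. The sources used here do not give age, sex, or the cells and promoter behind G17V RHOA. No treatment is named.

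A B cell recognises antigen through surface immunoglobulin joined to CD79A and CD79B. The kinases LYN, BLK, SYK and BTK and the adaptor BLNK carry the signal inwards, and PAX5, EBF1 and SPIB hold the cells in the B lineage. On differentiation to a plasma cell this programme is shut down, and XBP1 and its targets enlarge the secretory pathway through which antibody leaves. In spleen, B cells lie beside CD4+ T cells in the white pulp, and plasma cells are found in the red pulp. In a bulk sample, fewer cells of a type and less RNA per cell cannot be told apart.

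Depth split the libraries into 2 sets, and both genotypes were in each. Reads were recovered from the steps of the RPKM values and summed to 9006361 to 11152352 per library in WT1, WT2 and RT1, called deep below, and to 96262 to 111137 in WT3, WT4, RT2 and RT3, called shallow. Levels are given as reads per 1000000 recovered reads (RPM), which is not divided by gene length. A single read was worth 8.998 to 10.4 RPM in a shallow library and 0.0897 to 0.111 RPM in a deep one. With 3 reads taken as the limit, absence from a shallow library allows 27.0 to 31.2 RPM. Intervals and limits cover counting error only. Low read numbers in the deep libraries did not behave as single counts: of 502 genes with 10 to 15 reads in WT1, 51.8% were listed at 0 in WT2, against 0.445% for WT3 and WT4. No counting limit is therefore given for a deep library. Cd4 stood at 961 to 2043 RPM and Cd3e at 307 to 831 RPM, so T cell genes were present in every library. Cd8a did not exceed 18.6 RPM.

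Taken by library, the summed B cell and plasma cell genes were highest in WT3 and WT4. Not each gene was: Lyn was highest in RT1 and Edem2 in WT2. The 21 B cell members (surface, signalling and transcription factor genes) summed to 860.2, 637, 3061 and 3346 RPM in WT1 to WT4 and 1208, 644 and 657 RPM in RT1 to RT3. Those sums rest on 321 and 360 reads in WT3 and WT4 and on 62 and 73 reads in RT2 and RT3. The exact Poisson intervals (95%) were 2735 to 3415 RPM in WT3, 3009 to 3710.3 RPM in WT4, 494 to 826 RPM in RT2 and 515 to 826 RPM in RT3. The shallow WT mean was 4.93 times the shallow RT mean, whereas RT1 stood at 1.61 times the deep WT mean. For this sum of 21 genes the RT and WT levels thus lay in opposite order in the 2 sets. A ratio of these sums depends much on Cd37, a tetraspanin, which gave 74.2% of the B cell members' reads in RT2 (Wilson interval 62.1 to 83.4%) and 20.2% in WT3. Without Cd37 the ratios were 10.2 (shallow, WT over RT) and 2.02 (RT1 over deep WT).

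The 11 plasma cell members summed to 326, 301, 2184 and 2221 RPM in WT1 to WT4 and 792, 384 and 459 RPM in RT1 to RT3. WT3 and WT4 again stood above the other libraries, and RT1 stood above both deep WT libraries. The shallow WT mean was 5.22 times the shallow RT mean and RT1 was 2.53 times the deep WT mean. Jchain, the joining chain of IgM and IgA, supplied 57.6% and 66.1% of the plasma members' reads in WT3 and WT4. Without it the ratios were 2.79 and 1.78.

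**Figure D1:**
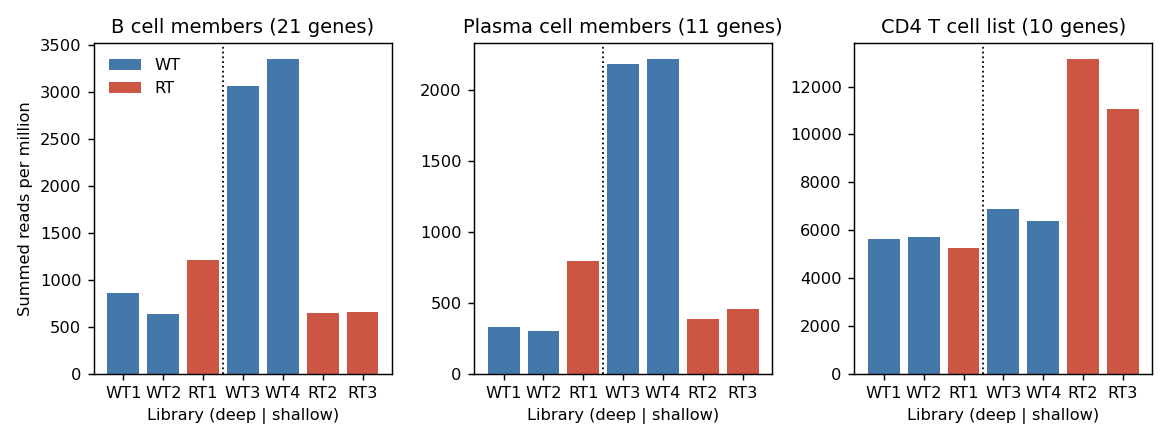
Summed RPM (y axis, from 0, a scale of its own in each panel) of the 21 B cell members, the 11 plasma cell members and 10 CD4 T cell marker genes in each of the 7 libraries (x axis). Blue bars are WT, red bars RT, and the dotted line parts deep from shallow libraries. Bars are single libraries and carry no error bar. The B and plasma bars are tallest in WT3 and WT4, at 2184 to 3346 RPM, and the T cell bars in RT2 and RT3.

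Counted over all 32 members with no filter, 20 were at 0 in RT2 and 14 in RT3, against 2 each in WT3, WT4 and RT1 and 4 each in WT1 and WT2. Of all 19589 genes, 7733 were above 0 in RT2, 8323 in RT3, 8429 in WT3 and 8561 in WT4. In the deep libraries 11715 to 12985 were. Most genes were thus at 0 in each shallow library, so the zeros in RT2 and RT3 are not particular to the members. The highest of the 7 levels was in WT3 or WT4 for 29 members by RPM and for 31 by RPKM. A share over all genes was not worked out for these counts. RPKM is not on 1 scale in the 2 sets. Over all genes it summed to 133044 to 152578 in the deep libraries and to 326187 to 366023 in the shallow ones. A difference in RPKM between the sets therefore holds a difference of scale. Levels of different genes can be set side by side only per length. On the RPKM scale the highest members in WT3 were Jchain at 441 RPKM, Cd37 at 155, Cd79a at 121 and Cd79b at 112 RPKM. In RT2 they were Cd37 at 123, Jchain at 45.1, Xbp1 at 40.8 and Cd79a at 32.4 RPKM. In RT1 they were Jchain at 58.6, Lyn at 30.2, Cd37 at 21.2 and Txndc5 at 19.6 RPKM.

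**Figure D2:**
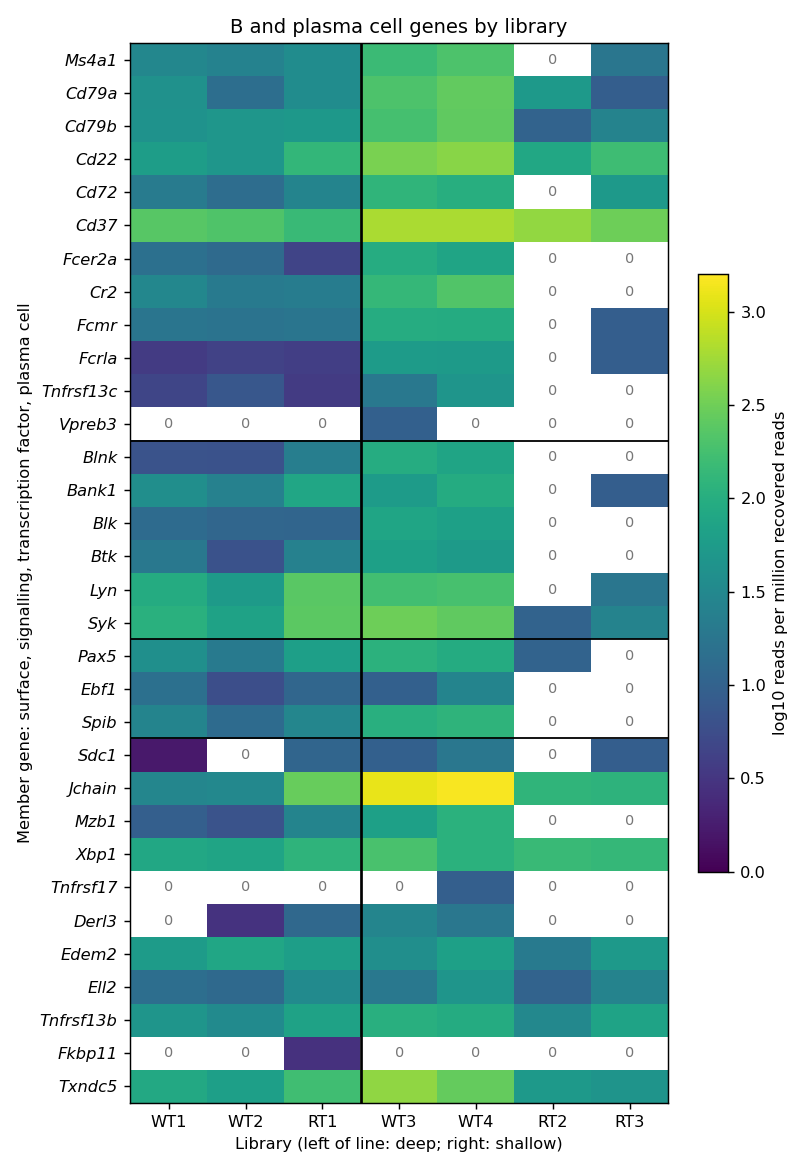
Level of each of the 32 members (rows, by role) in each library (columns) in RPM on a log10 colour scale, with 0 written in white cells for members without reads. Rows are to be read along, since RPM is not divided by length. The WT3 and WT4 columns are the fullest, with 2 members at 0 each, and RT2 is the emptiest, with 20 members at 0. Of all 19589 genes, 7733 were above 0 in RT2, against 8429 in WT3 and 8561 in WT4.

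Differences between RT and WT are given from fits to the whole table. The first fit used limma on log2(RPKM + 1) over all 7 libraries, and 28 of the 32 members passed its filter of 1 RPKM in 3 libraries. None was called in either direction, with 7 at an unadjusted p under 0.05, while 0.0416% of the 9605 genes tested were called higher and 0.0104% lower. The members' median log2 difference, RT minus WT, was -1.38, with a median over all genes of 0.00, and 26 of the 28 were negative. Within WT, RPKM levels of most members were low in WT1 and WT2 and high in WT3 and WT4. The higher RPKM scale of the shallow libraries adds to that contrast. Ms4a1, for example, averaged 13.9 ± 13.7 RPKM (SD, n = 4) over the WT libraries, against 1.86 ± 1.62 RPKM (SD, n = 3) over the RT ones; its limma log2 difference was -1.93 ± 0.93 (SE, adjusted p = 0.614).

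A second fit, limma voom on recovered reads with library set as a term, kept genes with 10 or more reads over the shallow libraries. It kept 25 members, and 19 of these had fewer than 10 reads in RT2 and RT3 together, so their reads in WT3 and WT4 brought them past the filter. Ell2, with 7 reads in WT3 and WT4 and 4 in RT2 and RT3, passed only on both together. The 7 that failed were Tnfrsf13c, Vpreb3, Ebf1, Sdc1, Tnfrsf17, Derl3 and Fkbp11. In this fit 1 member, Ell2, was called higher in RT, where 9.32% of 5866 genes were, and 2 members, Cd37 and Fcer2a, were called lower, where 7.88% of genes were. The median log2 difference of the 25 was 0.54, against -0.03 over all genes. The sign of the median thus differed between the fits, and voom gives the deep libraries more weight. It takes their reads as single counts, which low read numbers there were not. Fitted by set, the deep libraries alone gave 4 members higher (3.44% of genes) and 0 lower (1.88% of genes), with 13 members at an unadjusted p under 0.05. With RT1 as the lone RT library, that fit takes its variance from the WT pair and from the other genes, and it compares 1 RT mouse with 2 WT mice: genotype and that mouse cannot be told apart. The shallow libraries alone gave 13 members lower (4.67% of genes) and 0 higher (3.38% of genes). Without RT2 or RT3 that count was 3. A member that passed the filter through WT3 and WT4 had to be higher there, so the shallow count and the shallow p-values of such members below are descriptions only and support no difference. The 6 members with 10 or more reads in RT2 and RT3 are free of that limit: Cd22, Jchain and Txndc5 were called lower among them, and Cd37, Xbp1 and Tnfrsf13b were not. Another limit holds for all shallow p-values, here and below. They take WT spread from WT3 and WT4, which differed by little more than counting error. They therefore do not measure the spread between mice.

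The difference between the sets was fitted as a genotype by library set term in voom. It was called for 4 members, all negative: Jchain, Blnk, Mzb1 and Syk, where 1.11% of genes were called negative and 0.017% positive. A negative value means that RT minus WT was lower in the shallow than in the deep libraries. Its size was -6.70 ± 0.44 (SE, adjusted p = 0.00150) on the log2 scale for Jchain, -6.03 ± 0.81 (SE, adjusted p = 0.0194) for Blnk, -6.07 ± 0.92 (SE, adjusted p = 0.0315) for Mzb1 and -5.23 ± 0.95 (SE, adjusted p = 0.0493) for Syk by limma voom. Blnk and Mzb1 had 0 and Syk 4 reads in RT2 and RT3, so the filter bears on their terms as on the shallow fit, while Jchain had 25. For Blnk and Mzb1 the size and SE of the term rest on how voom treats 0 reads and do not measure a fold. The same holds for the shallow log2 differences given below for members with 0 reads in RT2 and RT3. The deep side of each term is the library RT1. Without RT2 or RT3 the term was called for 0 members, without WT3 or WT4 for 1, and without WT1 or WT2 for 14. With the filter at 10 reads over all libraries, the set fits and this term called 0 of 13186 genes.

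**Figure D3:**
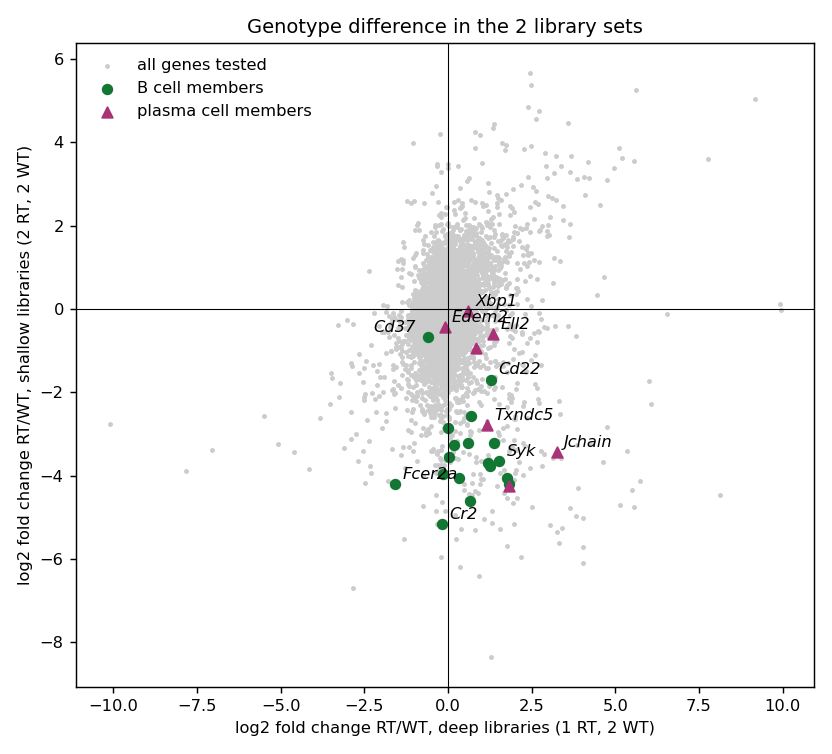
Log2 fold change of RT over WT by limma voom in the deep libraries (x axis, 1 RT and 2 WT) and in the shallow ones (y axis, 2 and 2) for 25 members and all genes tested (grey, 5866). Green circles are B cell members and purple triangles plasma cell members. Most members lie in the lower right part, higher in RT1 and lower in RT2 and RT3, with medians of 0.69 on the x axis and -3.44 on the y axis. The filter favours places below 0 on the y axis: 19 members had fewer than 10 reads in RT2 and RT3. The y values of the 7 members at 0 there rest on how voom treats 0. With these 7 set at a floor of 3 reads, the median log2 ratio of pooled shallow reads was -2.95. Xbp1, Edem2, Ell2 and Cd37 lie nearest 0 on the y axis.

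Promoter sequence is shown for 3 members whose 250 bases before the RefSeq start (GRCm38.p6, the mm10 assembly) hold a motif tied to their role. Promoters of 27 members were matched by symbol. Each is written 5′ to 3′ on the gene's strand, here the minus strand, with the motif in capitals. The starts are RefSeq's and need not be the outer bounds given for the genes. The octamer ATTTGCAT, bound by POU factors with the coactivator OBF-1, lies 130 bases before the start of Blnk (chr19:40994222-40994471). TCCC and GGGA with 2 bases between them, an EBF1-type motif, lie 49 bases before that of Cd22 (chr7:30879029-30879278). The unfolded protein response element TGACGTGG, a site for XBP1 and ATF6, lies 138 bases before that of Txndc5 (chr13:38527915-38528164).
Blnk: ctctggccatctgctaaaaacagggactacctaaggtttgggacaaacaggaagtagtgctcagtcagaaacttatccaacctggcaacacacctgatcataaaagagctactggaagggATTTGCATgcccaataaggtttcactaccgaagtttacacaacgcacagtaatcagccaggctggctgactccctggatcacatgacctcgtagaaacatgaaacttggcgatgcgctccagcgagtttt
Cd22: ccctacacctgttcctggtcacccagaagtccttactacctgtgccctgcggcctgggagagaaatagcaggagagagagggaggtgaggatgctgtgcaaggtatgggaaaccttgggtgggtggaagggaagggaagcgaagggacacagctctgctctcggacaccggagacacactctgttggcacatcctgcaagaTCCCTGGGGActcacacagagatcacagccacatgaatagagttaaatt
Txndc5: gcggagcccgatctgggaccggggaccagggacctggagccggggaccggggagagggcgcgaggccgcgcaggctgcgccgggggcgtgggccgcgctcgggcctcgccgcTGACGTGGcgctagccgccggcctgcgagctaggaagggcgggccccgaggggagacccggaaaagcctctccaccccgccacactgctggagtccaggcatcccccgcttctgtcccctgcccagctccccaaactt
Searched on both strands over 300 bases, the octamer was found in 2 of 17 matched B cell members (Blnk and Vpreb3), against 1.97% of 27025 genes in the table. The EBF1-type motif was found in 1 of 17, against 1.06% of genes. TGACGTGG was found in 1 of 10 matched plasma cell members, against 0.714%. The ER stress element, CCAAT and CCACG with 9 bases between them, was found in 1 of 10 (Derl3), against 0.137%. These matches are descriptions of the sequence, and binding was not measured.

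Among the surface genes, the antigen receptor's own chains and CD20 were high in WT3 and WT4 alone. Ms4a1 (chr19:11249675-11266241, mm10), which encodes CD20, stood at 29.98, 26.5, 153 and 204 RPM in WT1 to WT4 and 35.5, 0 and 18.0 RPM in RT1 to RT3. Cd79a (chr7:24897381-24902197) stood at 41.4, 14.4, 200.2 and 269.6 RPM in WT1 to WT4 and 35.7, 51.9 and 8.998 RPM in RT1 to RT3. Cd79b (chr11:106311341-106314762) stood at 42.2, 48.1, 181 and 260.3 RPM in WT1 to WT4 and 51.0, 10.4 and 27.0 RPM in RT1 to RT3. In all 3 genes WT3 and WT4 lay above every other library, and the deep libraries of both genotypes stayed between 14.4 and 51.0 RPM. The shallow WT over RT ratio was 18.5 (95% exact counting interval 4.79 to 159) for Ms4a1, on 38 against 2 reads. It was 8.14 (95% exact counting interval 3.49 to 23.2) for Cd79a and 11.5 (95% exact counting interval 4.19 to 43.8) for Cd79b. The shallow limma voom fit gave them adjusted p-values of 0.0384, 0.00111 and 0.00562, which the filter limits to a description. The wide intervals come from the few reads in RT2 and RT3.

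Cd22 (chr7:30865402-30880342), an inhibitory co-receptor that binds sialic acid, lay in opposite genotype order in the 2 sets. Its level was 60.4, 47.6, 362 and 428 RPM in WT1 to WT4 and 130.1, 83.1 and 162 RPM in RT1 to RT3. RT1 lay above WT1 and WT2, and RT2 and RT3 lay below WT3 and WT4. The limma voom log2 difference was 1.29 ± 0.26 (SE, adjusted p = 0.0452) in the deep libraries and -1.69 ± 0.39 (SE, adjusted p = 0.00127) in the shallow ones. Fitted over both sets it was 0.76 ± 0.43 (SE, adjusted p = 0.272), and on RPKM with limma -0.15 ± 0.95 (SE, adjusted p = 0.977). The difference between the sets, -2.98 ± 0.58 (SE, adjusted p = 0.0633) by limma voom, did not pass the threshold.

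Cd37 (chr7:45233632-45239115) is also expressed by T cells. It stood at 235, 210.3, 619.8 and 623 RPM in WT1 to WT4 and 146, 478 and 315 RPM in RT1 to RT3. RT1 lay below both deep WT libraries and RT2 and RT3 lay below WT3 and WT4, so it kept 1 direction within each set. The limma voom fit over both sets gave -0.63 ± 0.14 (SE, adjusted p = 0.0217). Within the sets the values were -0.60 ± 0.21 (SE, adjusted p = 0.178) and -0.69 ± 0.29 (SE, adjusted p = 0.136) by limma voom, neither past the threshold. The call over both sets was lost without WT3, WT4, RT1 or RT3, with limma voom adjusted p-values of 0.0530 to 0.571, while the log2 difference stayed between -0.69 and -0.56.

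Fcer2a (chr8:3681737-3694175) encodes CD23, the low-affinity IgE receptor of follicular B cells. Its level was 14.99, 12.6, 95.4 and 74.4 RPM in WT1 to WT4 and 4.57, 0 and 0 RPM in RT1 to RT3. Among the 25 members tested it is 1 of 2, with Blk, in which every RT library lay below every WT library (5.54% of the 5866 genes tested). In none of the 25 did every RT library lie above every WT library (5.64% of genes). Fcer2a and Blk had 18 and 15 reads in WT3 and WT4 and 0 in RT2 and RT3, so both passed the filter through WT3 and WT4. The filter thus favours the shallow part of this order and bears on the call of Fcer2a over both sets. Both are descriptions only. The limma voom log2 difference of Fcer2a over both sets was -1.87 ± 0.44 (SE, adjusted p = 0.0231), and -1.57 ± 0.90 (SE, adjusted p = 0.421) in the deep libraries alone. In the shallow libraries its pooled WT level was 5.86 times the level of 3 reads over RT2 and RT3, taken as the floor. Such a ratio leaves out the counting error of the WT reads, so the true fold may be smaller. The call over both sets was lost without RT1 and without RT3, with limma voom log2 differences of -4.20 (adjusted p = 0.239) and -1.80 (adjusted p = 0.0514). It was also lost with the filter at 10 reads over all libraries (limma voom adjusted p = 0.0563).

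Of the other surface members, all but Vpreb3 were highest in WT3 and WT4. Cr2 (chr1:195136811-195176716), the complement receptor CD21 of follicular and marginal zone B cells, stood at 30.1, 20.98, 133 and 214 RPM in WT1 to WT4 and 22.1, 0 and 0 RPM in RT1 to RT3. Cd72 (chr4:43446462-43454628), an inhibitory receptor, stood at 21.3, 14.1, 124 and 102 RPM in WT1 to WT4 and 27.5, 0 and 54.0 RPM in RT1 to RT3. Fcmr (chr1:130865669-130880791), the Fc receptor for IgM, stood at 17.8, 16.6, 95.4 and 92.9 RPM in WT1 to WT4 and 17.4, 0 and 8.998 RPM in RT1 to RT3. Cr2 had 37 reads in WT3 and WT4 and 0 in RT2 and RT3, at least 12.0-fold lower, whereas RT1 was at 0.875 times the deep WT level. Fcrla (chr1:170917576-170927583), an intracellular Fc receptor-like protein of B cells, stood at 3.55, 4.31, 57.2 and 55.8 RPM in WT1 to WT4 and 3.95, 0 and 8.998 RPM in RT1 to RT3. Tnfrsf13c (chr15:82221743-82224369), the BAFF receptor, stood at 4.66, 7.47, 19.1 and 46.5 RPM in WT1 to WT4 and 3.59, 0 and 0 RPM in RT1 to RT3, and Vpreb3 (chr10:75943057-75949657), expressed by B cell precursors, had a single read, in WT3. No surface member but Cd22 was called in the deep libraries.

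The signalling genes lay in opposite order in the sets too. The 6 of them summed to 277, 174, 782 and 734 RPM in WT1 to WT4 and 626, 10.4 and 54.0 RPM in RT1 to RT3. RT2 held 1 read of them and RT3 held 6, against 82 and 79 reads in WT3 and WT4, while RT1 stood above both deep WT libraries. Lyn (chr4:3678115-3813122), a Src family kinase of B and myeloid cells, stood at 93.7, 55.2, 172 and 186 RPM in WT1 to WT4 and 240.2, 0 and 18.0 RPM in RT1 to RT3. Syk (chr13:52583173-52648792), the kinase recruited to phosphorylated CD79 chains, stood at 107, 69.4, 315 and 260.3 RPM in WT1 to WT4 and 247, 10.4 and 27.0 RPM in RT1 to RT3. Blnk (chr19:40928927-40994535), the adaptor that SYK phosphorylates, stood at 6.55, 6.32, 95.4 and 74.4 RPM in WT1 to WT4 and 23.0, 0 and 0 RPM in RT1 to RT3. For Lyn, RT1 was the highest of all 7 libraries, and for Syk and Blnk it lay between the deep and the shallow WT levels.

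In the deep libraries Lyn was 3.29 times, Syk 2.85 times and Blnk 3.58 times as high in RT1 as in WT1 and WT2 pooled. The limma voom log2 differences there were 1.76 ± 0.31 (SE, adjusted p = 0.0324) for Lyn and 1.54 ± 0.28 (SE, adjusted p = 0.0366) for Syk, both past the threshold for RT1 against WT1 and WT2, and 1.83 ± 0.63 (SE, adjusted p = 0.171) for Blnk, not past it. In the shallow libraries they were -4.06 ± 1.33 (SE, adjusted p = 0.0370), -3.66 ± 0.84 (SE, adjusted p = 0.00131) and -4.20 ± 1.36 (SE, adjusted p = 0.0347) by limma voom, on 2, 4 and 0 reads in RT2 and RT3, and are descriptions for the same reason. Blnk had no read in RT2 or RT3, and its shallow WT level was 5.86 times the floor of 3 reads. Over both sets none was called: the limma voom log2 differences were 1.503 ± 0.50 (SE, adjusted p = 0.0749) for Lyn, 1.21 ± 0.50 (SE, adjusted p = 0.138) for Syk and 1.40 ± 0.59 (SE, adjusted p = 0.144) for Blnk.

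Bank1 (chr3:136053363-136326066), a scaffold of B cell receptor signalling, stood at 37.8, 25.7, 57.2 and 92.9 RPM in WT1 to WT4 and 79.4, 0 and 8.998 RPM in RT1 to RT3. Btk (chrX:134542336-134583570), the Tec family kinase downstream of SYK, stood at 19.1, 6.42, 66.7 and 55.8 RPM in WT1 to WT4 and 25.4, 0 and 0 RPM in RT1 to RT3. Blk (chr14:63372836-63417037), a Src family kinase of the B lineage, stood at 13.1, 11.4, 76.3 and 65.1 RPM in WT1 to WT4 and 11.03, 0 and 0 RPM in RT1 to RT3. RT1 lay above both deep WT libraries for Bank1 and Btk and just below them for Blk. RT2 and RT3 together held 1 read of Bank1 and none of Btk or Blk. Bank1 had a limma voom log2 difference of 1.18 ± 0.39 (SE, adjusted p = 0.0745) over both sets and 1.37 ± 0.34 (SE, adjusted p = 0.0757) in the deep libraries, and none of these 3 genes was called in the deep, shallow or combined fit.

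The transcription factors had almost no reads in the shallow RT libraries. Pax5 (chr4:44524757-44710487), which holds B lineage identity, stood at 39.0, 20.5, 114 and 92.9 RPM in WT1 to WT4 and 63.8, 10.4 and 0 RPM in RT1 to RT3. Spib (chr7:44525993-44532071), an Ets factor of B cells and plasmacytoid dendritic cells, stood at 28.1, 13.3, 105 and 121 RPM in WT1 to WT4 and 29.7, 0 and 0 RPM in RT1 to RT3. Ebf1 (chr11:44617317-45008091), an early B lineage factor, stood at 15.2, 5.94, 9.54 and 27.9 RPM in WT1 to WT4 and 11.3, 0 and 0 RPM in RT1 to RT3. RT2 held 1 read of the 3 genes and RT3 none, against 24 in WT3 and 26 in WT4. The shallow limma voom log2 difference, again a description, was -4.60 ± 1.35 (SE, adjusted p = 0.0174) for Spib and -3.69 ± 1.35 (SE, adjusted p = 0.0759) for Pax5. Over both sets the limma voom log2 differences were 0.96 ± 0.50 (SE, adjusted p = 0.226) for Pax5 and 0.34 ± 0.61 (SE, adjusted p = 0.739) for Spib. Ebf1 passed the filter of neither fit.

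**Figure D4:**
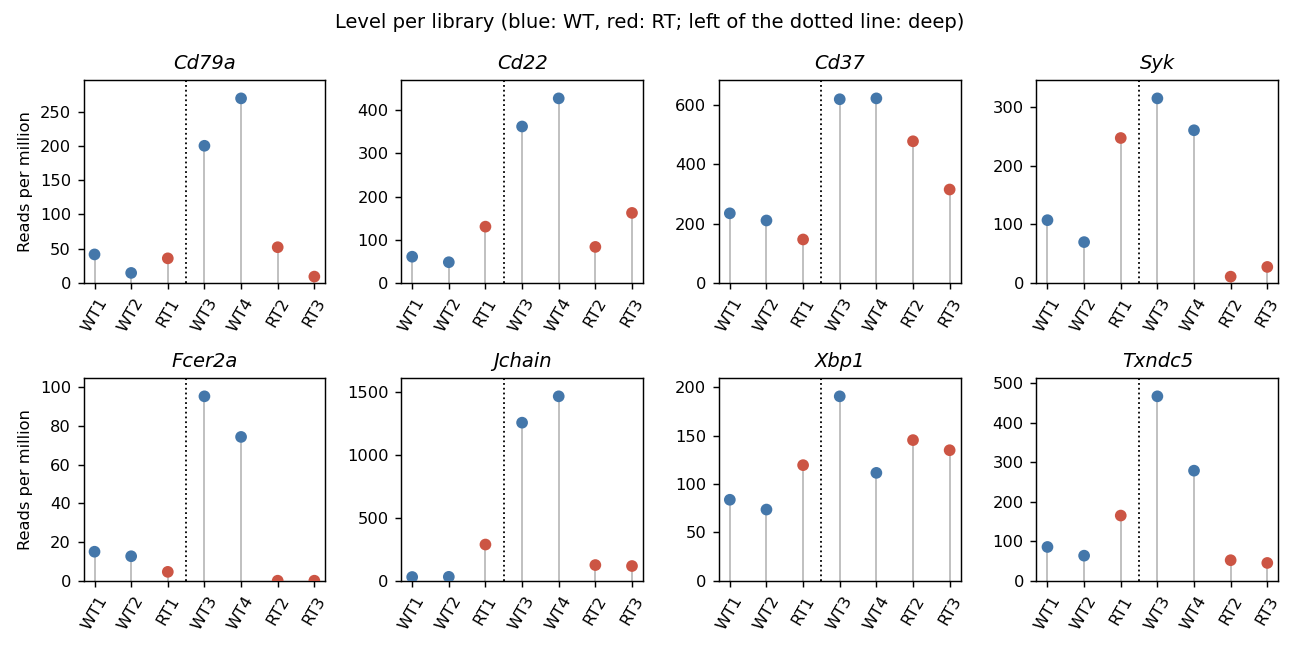
RPM (y axis, scale of its own in each panel) of single members in the 7 libraries (x axis), WT in blue and RT in red. Each point is 1 library. Jchain ran from 29.4 to 1469 RPM, with WT3 and WT4 far above the rest, whereas Xbp1 ran from 73.6 to 191 RPM with both genotypes mixed.

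Jchain (chr5:88519809-88527891) spanned a wide range among the plasma cell members. It stood at 29.4, 30.9, 1259 and 1469 RPM in WT1 to WT4 and 288, 125 and 117 RPM in RT1 to RT3. WT3 and WT4 lay above every RT library, and every RT library lay above WT1 and WT2. RT1 was 9.54 times the deep WT level, a limma voom log2 difference of 3.25 ± 0.28 (SE, adjusted p = 0.0113). The shallow WT over RT ratio was 11.3 (95% exact counting interval 7.52 to 17.8), and the limma voom log2 difference was -3.44 ± 0.35 (SE, adjusted p = 1.78e-14). Over both sets it was 1.22 ± 1.07 (SE, adjusted p = 0.476) by limma voom and -0.23 ± 1.56 (SE, adjusted p = 0.978) by limma on RPKM, so neither pooled value describes either set. The small shallow p rests on the closeness of WT3 and WT4 and does not measure the spread between mice.

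Mzb1 encodes an endoplasmic reticulum chaperone of antibody assembly in marginal zone B cells and plasma cells. It stood at 9.33, 6.61, 66.7 and 112 RPM in WT1 to WT4 and 27.7, 0 and 0 RPM in RT1 to RT3. Txndc5 (chr13:38500079-38528824), a protein disulfide isomerase, stood at 85.5, 63.4, 467 and 279 RPM in WT1 to WT4 and 165, 51.9 and 45.0 RPM in RT1 to RT3. Both had RT1 above the deep WT libraries and RT2 and RT3 below the shallow WT libraries. The limma voom log2 difference in the shallow libraries was -4.24 ± 1.36 (SE, adjusted p = 0.0332) for Mzb1, with 0 reads in RT2 and RT3, and -2.79 ± 0.50 (SE, adjusted p = 1.53e-05) for Txndc5. In the deep libraries it was 1.83 ± 0.58 (SE, adjusted p = 0.141) for Mzb1 and 1.18 ± 0.26 (SE, adjusted p = 0.0524) for Txndc5, neither called by limma voom. Over both sets Mzb1 had 1.43 ± 0.59 (SE, adjusted p = 0.140) by limma voom.

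Among the plasma cell members, 3 had shallow RT levels that overlapped the shallow WT levels. Xbp1 (chr11:5520659-5525893), the transcription factor of the unfolded protein response, stood at 83.7, 73.6, 191 and 112 RPM in WT1 to WT4 and 119.5, 145 and 135 RPM in RT1 to RT3. Ell2 (chr13:75706757-75772364), an elongation factor that favours the secreted form of immunoglobulin heavy chain in plasma cells, stood at 14.2, 12.6, 19.1 and 46.5 RPM in WT1 to WT4 and 33.8, 10.4 and 27.0 RPM in RT1 to RT3. Edem2 (chr2:155701677-155729475), a mannosidase-like protein of endoplasmic reticulum-associated degradation, stood at 56.3, 77.5, 38.1 and 65.1 RPM in WT1 to WT4 and 62.1, 20.8 and 54.0 RPM in RT1 to RT3. For Xbp1 both RT2 and RT3 lay between WT3 and WT4. In the other 22 of the 25 members tested, which the filter favours as above, both shallow RT libraries lay below both shallow WT libraries, as in 28% of all genes. In 0 members did both lie above, as in 22.8% of all genes. The shallow WT over RT ratio was 1.08 (95% exact counting interval 0.631 to 1.85) for Xbp1, 1.34 (95% exact counting interval 0.492 to 3.84) for Edem2 and 1.71 (95% exact counting interval 0.434 to 7.96) for Ell2, so differences of several fold in Ell2 and Edem2 were not detectable at this depth. Tnfrsf13b (chr11:61126755-61149372), the receptor TACI, stood at 46.1, 33.7, 105 and 92.9 RPM in WT1 to WT4 and 69.9, 31.2 and 72.0 RPM in RT1 to RT3. Its shallow ratio was 1.86 (95% exact counting interval 0.859 to 4.28).

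Ell2 was the only member called higher over both sets, at 1.24 ± 0.25 (SE, adjusted p = 0.0124) by limma voom. RT1 had 33.8 RPM against 14.2 and 12.6 RPM in WT1 and WT2, while RT2 and RT3 rested on 1 and 3 reads. The limma voom log2 difference was 1.34 ± 0.46 (SE, adjusted p = 0.171) in the deep libraries alone and -0.64 over both sets without RT1. The values over both sets for Xbp1, 0.54 ± 0.18 (SE, adjusted p = 0.0713), and Tnfrsf13b, 0.72 ± 0.26 (SE, adjusted p = 0.0983), were not called by limma voom. By limma on RPKM, Xbp1 had 0.46 ± 0.58 (SE, adjusted p = 0.859) and Ell2 0.09 ± 0.56 (SE, adjusted p = 0.977).

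The remaining plasma cell members were at or near the limit of these libraries. Sdc1 (chr12:8771323-8793715), which encodes CD138, stood at 1.67, 0, 9.54 and 18.6 RPM in WT1 to WT4 and 11.1, 0 and 8.998 RPM in RT1 to RT3. Derl3 (chr10:75893413-75895941), a component of endoplasmic reticulum-associated degradation, stood at 0, 2.97, 28.6 and 18.6 RPM in WT1 to WT4 and 12.2, 0 and 0 RPM in RT1 to RT3. Tnfrsf17 (chr16:11313812-11320074), the receptor BCMA, had 1 read, in WT4. Fkbp11 (chr15:98724366-98728198), a peptidyl-prolyl isomerase of secretory cells, had reads only in RT1, at 2.87 RPM. For Sdc1 and Derl3 the level in RT1 was above both deep WT libraries, on 124 and 136 reads. Reads of a deep library need not be single counts, so these numbers do not measure how firm the levels are. RT1 lay above both deep WT libraries in 17 of the 25 tested members, as in 36.2% of all genes.

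WT3 and WT4 set the pattern. Both lay above the 5 other libraries in 20 of the 25 tested members, as in 8.76% of all genes; the exceptions were Bank1, Lyn, Xbp1, Edem2 and Ell2. The filter favours members high in WT3 and WT4, so this count is a description too. Between WT3 and WT4, exact binomial tests of 24 members gave a smallest p of 0.0247 (adjusted 0.593). Left out together, as an alternative chosen after seeing the data, the limma voom fit over both sets called 9 members higher in RT (5.88% of genes) and 0 lower (3.41% of genes). The 9 were Cd22, Blnk, Bank1, Lyn, Syk, Jchain, Mzb1, Ell2 and Txndc5. With no shallow WT library left, these values compare RT1 with WT1 and WT2. The limma voom log2 difference was then 3.25 ± 0.22 (adjusted p = 0.00202) for Jchain and 1.83 ± 0.33 (adjusted p = 0.0160) for Blnk. Fcer2a and Cd37 were not called, at -1.58 ± 0.44 (adjusted p = 0.0714) and -0.60 ± 0.22 (adjusted p = 0.145) by limma voom.

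The lists of further B cell genes and of immunoglobulin constant genes, with no member in them, had their highest sums in WT3 and WT4. Not each of their genes did. The receptor signalling, germinal centre and secretory lists, given below, did not have their highest sums there. A list of 17 further B cell genes summed to 1733, 1119.5, 6561 and 6590.1 RPM in WT1 to WT4 and 2383, 1922 and 2222 RPM in RT1 to RT3. Of the 14 tested, limma voom over both sets called 3 higher and 1 lower, and 7 were called lower in the shallow libraries. Pou2af1, the coactivator OBF-1, had a log2 difference of 2.42 (adjusted p = 0.0102), Cd83 1.22 (adjusted p = 0.0220) and Bach2, a repressor of plasma cell differentiation, -2.18 (adjusted p = 0.000615) by limma voom. The 11 immunoglobulin constant genes summed to 1501, 991, 20015 and 19380.0 RPM in WT1 to WT4 and 8142, 4592 and 5282 RPM in RT1 to RT3. Of 10 tested, 8 were called lower in the shallow and 5 higher in the deep libraries, and 1 was called higher over both sets. That gene, Ighg1, stood at 5.33, 1.73, 38.1 and 139 RPM in WT1 to WT4 and 189, 20.8 and 18.0 RPM in RT1 to RT3. The summed antibody genes thus showed the order of Jchain, with RT1 above the deep WT libraries and RT2 and RT3 below WT3 and WT4.

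A list of 15 other genes of B cell receptor signalling, some of which T cells also use, summed to 3324, 3075, 3385 and 3486 RPM in WT1 to WT4 and 3698, 2504 and 2924 RPM in RT1 to RT3. Of 13 tested, 3 were called higher and 1 lower over both sets, and 0 in either direction in the shallow libraries, where their median log2 difference was -0.66. Malt1 had 1.37 (adjusted p = 0.0136), Vav2 1.15 (adjusted p = 0.0185) and Pik3cd -0.66 (adjusted p = 0.0136) by limma voom. The germinal centre list was higher in all 3 RT libraries, at 163, 104, 105 and 102 RPM in WT1 to WT4 and 449, 322 and 387 RPM in RT1 to RT3. Called higher over both sets were Bcl6, 1.997 (adjusted p = 0.000615), and S1pr2, 2.33 (adjusted p = 0.00516) by limma voom. Follicular helper T cells express Bcl6 too. Fas stood at 93.5 and 54.0 RPM in RT2 and RT3, against 19.1 and 37.2 RPM in WT3 and WT4. Over both sets Fas had -0.30 (adjusted p = 0.463) by limma voom. Of the list's 8 genes, 3 could be tested (Bcl6, S1pr2 and Fas), and 5 of the 8 were at 0 in each shallow library. The secretory list of 18 genes, most of which all cells use, summed to 2214, 2179, 3805 and 3699 RPM in WT1 to WT4 and 2490.1, 4342 and 4319 RPM in RT1 to RT3. Of 17 tested, Hspa5 was called higher, 0.38 (adjusted p = 0.0319), and Dnajc3 lower, -0.52 (adjusted p = 0.0468) by limma voom.

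Markers of other cells also differed between the libraries. The CD4 T cell list (10 genes, none at 0 in any library) summed to 5612, 5694, 6885 and 6395 RPM in WT1 to WT4 and 5232, 13152 and 11085 RPM in RT1 to RT3, and 8 of 10 were called higher in RT in the shallow libraries. Set against it, the B cell members had 44.5 and 52.3 reads per 100 T cell list reads in WT3 and WT4 and 4.90 and 5.93 in RT2 and RT3. The ratio was 15.3 and 11.2 in WT1 and WT2 and 23.1 in RT1. The erythroid list ran from 109 to 1764 RPM in WT and from 171 to 405 RPM in RT, with WT3 and WT4 highest, and 4 of 4 tested genes were called lower in the shallow RT libraries. The dendritic cell list was at 486 RPM in WT3, 493 RPM in WT4 and 73.1 to 105 RPM in the others. The monocyte and macrophage list was highest in RT1, at 2259 RPM, against 489 to 1068 RPM in WT and 291 and 414 RPM in RT2 and RT3. Csf1r, Cd68 and Adgre1 of that list were called higher in RT over both sets by limma voom, and macrophages also express Lyn, Syk and Btk. The NK cell list was at 416 and 198 RPM in RT2 and RT3 and at 27.2 to 85.8 RPM in the others. The neutrophil list did not exceed 86.2 RPM, its level in RT1. The CD8 list did not exceed 27.9 RPM. The stroma and endothelium list ran from 104 to 273 RPM. The part of these other cells in the members' differences was not tested.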

How the data were processed

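The members, the gene lists and the fits were chosen with earlier results of these data known. The authors deposited RPKM values, reads scaled to gene length and library total, in 1 table. The build was mm10 (submitters' processing notes), and aligner, counter and annotation were not given in the sources used here. RPKM values carry the library total: multiplied by gene length and total, they gave whole reads. Lengths came from GENCODE M21: 10307 genes gave whole reads at the annotated length, 2665 at another, and 887 needed 2 lengths, 3 members among them. Coordinates are those of GENCODE M21 by symbol.

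All fits used R 4.3.3 and limma 3.58.1, two-sided, adjusted by Benjamini-Hochberg over all genes tested, with a threshold of 0.05. The limma fit (trended prior, genotype only) took log2(RPKM + 1) of genes at 1 RPKM or more in 3 libraries, and understates changes of low genes. The limma voom fit took recovered reads of genes with 10 or more over the shallow libraries, with genotype and library set; adjusted p-values called limma voom come from it, from either set alone, or from a genotype by set term. WT3 and WT4 differed by a chi-square per degree of freedom of 1.15 over 2346 genes (chi-square p = 8.87e-07), RT2 and RT3 by 3.04 over 2165. WT3 and WT4 thus differed by little more than counting error. The small p over so many genes does not show that they hold the spread between mice. They were kept as separate samples because the series counts them as mice. Fits with the shallow libraries take WT spread from this pair, and their p-values rest on that. Every member is accounted for. Values by library are given for members with 10 reads over the shallow libraries, and fold changes for members past a threshold and the 3 with the smallest p in each role; further members are described in the text beside them. From each other list, up to 3 genes with the smallest p were eligible. A marker gene is not reported here. The fits were tested on simulated data before use. The simulated reads were independent counts in every library, so that test does not cover the low deep reads that were not single counts. Promoters are RefSeq's, 250 bases before to 50 after each start.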

Additional observations from a re-analysis of the deposited data

Results flagged for a closer look

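In 4 members the genotype by library set term passed the threshold of limma voom, as given above. On the log2 scale, RT minus WT was lower in the shallow set by a term of -6.70 for Jchain, -6.07 for Mzb1, -6.03 for Blnk and -5.23 for Syk. In each of these 4 genes both shallow WT libraries lay above both shallow RT libraries, and RT1 lay above both deep WT libraries. Blnk and Mzb1 had 0 and Syk had 4 reads in RT2 and RT3, so they entered the fit through WT3 and WT4, and the deep side holds 1 RT library. The sizes for Blnk and Mzb1 rest on how voom treats 0 reads and do not measure a fold. The term was called for 0 members without RT2 or without RT3. Library set and whatever else differed between the mice of the 2 sets cannot be told apart.

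In the 4 WT libraries 2 members had 1 value far from the others. Vpreb3 was at 9.79 RPKM in WT3 and at 0 in the other WT libraries, and Tnfrsf17 was at 10.1 RPKM in WT4 and at 0 in the others. Each value is a single read. A single read in 1 of 4 libraries always meets this criterion, so the usual chance rate of about 1 in 20 groups does not hold here.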

How the results depend on the processing

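The limma fit on RPKM called 0 members in either direction under every alternative run, replicate block included. Over all genes it called 4 higher and 1 lower: 0 and 0 with a pseudocount of 0.1, with no filter, with the replicate block and without WT3 and WT4, 5 and 0 with a pseudocount of 5, 10 and 6 with median-ratio scaling, 20 and 7 with quantile normalisation, 21 and 5 with a library set term, 2 and 0 with WT3 and WT4 averaged, and 0 to 10 and 0 to 5 leaving out 1 library.

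The limma voom fit over both sets called 547 genes higher and 462 lower: 303 and 203 without the library set term, 202 and 110 in the deep set, 198 and 274 in the shallow set, 345 and 200 without WT3 and WT4, and 0 to 718 and 0 to 640 leaving out 1 library (0 without RT1). Of members it called 1 higher and 2 lower: 4 and 1 with 30 reads as the filter, 0 and 1 with 10 reads over all libraries, 3 and 1 without the library set term, 4 and 0 in the deep set, 0 and 13 in the shallow set, 9 and 0 without WT3 and WT4, 1 and 1 with WT3 and WT4 summed, and 0 to 3 and 0 to 2 leaving out 1 library. With the replicate block it called 3 higher and 2 lower. The replicate numbers share only a label: same-numbered libraries deviated together with r = 0.432 (WT1 and RT1, both deep), -0.179 and 0.184.

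With 10 reads over all libraries as the filter, the deep fit called 0 members, the shallow fit 0 and the genotype by set term 0. The shallow fit's 13 became 3 to 18 leaving out 1 library, with 3 without RT2 or RT3. The term's 4 became 7 with median-ratio sizes, 1 with WT3 and WT4 summed, and 0 to 14 leaving out 1 library other than RT1, without which it cannot be fitted. The ratio of summed B cell members became 10.2 (shallow) and 2.02 (deep) without Cd37. The plasma cell ratio became 6.10 and 2.87 by RPKM, and 2.79 and 1.78 without Jchain.

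Log2 differences over both sets that were positive turned negative in the shallow libraries alone: Cd22 -1.69, Blnk -4.20, Bank1 -3.22, Lyn -4.06, Syk -3.66, Pax5 -3.69, Spib -4.60, Jchain -3.44, Mzb1 -4.24, Xbp1 -0.0556, Ell2 -0.61 and Tnfrsf13b -0.94. They did so too without RT1, so that leaving out 1 library gave -1.69 to 1.03 for Cd22, -4.20 to 1.65 for Blnk, -3.21 to 1.40 for Bank1, -4.05 to 1.78 for Lyn, -3.69 to 1.37 for Syk, -3.70 to 1.35 for Pax5, -4.60 to 0.83 for Spib, -3.45 to 2.28 for Jchain, -4.24 to 1.67 for Mzb1, -0.0551 to 0.59 for Xbp1, -0.64 to 1.30 for Ell2 and -0.95 to 0.86 for Tnfrsf13b. Blnk, Bank1, Lyn, Syk, Pax5, Spib and Mzb1 passed the filter through WT3 and WT4. Their negative signs in the shallow libraries and without RT1 are therefore descriptions only. Blnk, Spib and Mzb1 had 0 reads in RT2 and RT3, so the sizes of these values rest on how voom treats 0. On RPKM, Cd37 (-0.23) became 0.15 with the replicate block, 0.15 with WT3 and WT4 averaged, 0.90 without both, and -0.74 to 0.50 leaving out 1 library; Ell2 (0.09) became -0.0235 with the set term and -0.11 to 0.44 leaving out 1 library. Shallow libraries limit what can be seen: 3 reads are 27.0 to 31.2 RPM, above the deep level of many members.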
